A study of Mus musculus with 45 samples.

Results

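The 5 mammary tumors of MMTV-Her2/neu mice were compared with the 40 tumors of the other 7 genetically engineered models in a series of 45 tumors examined by array comparative genomic hybridization (CGH). The members were the arrays whose tumor channel carries the model label MMTV-Her2/neu, named H2N1, H2N53, H2N61, H2N64 and H2NA (replicates 1 to 5). The other models, as labelled, were BRCA1fl/fl;p53+/-;MMTV-cre (n = 5), MMTV-c-Myc (n = 5), C3(1)/SV40 T/t-antigens (n = 5), MMTV-H-Ras (n = 5), p53fl/fl;MMTV-cre transplant (n = 6), MMTV-PyMT (n = 9) and MMTV-Wnt1 (n = 5). Genomic DNA of 1 tumor was hybridized with reference DNA on each 2-colour Agilent 44K array. The reference was pooled spleen by its source label, although the characteristics of that channel name normal mammary tissue. All tumors were primary mammary tumors of female mice by their labels, and neither strain nor age was given there. The comparison asks which chromosomes, regions and genes differed in copy number in MMTV-Her2/neu tumors.

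Her2, encoded by Erbb2 and called neu in rodents, is a receptor tyrosine kinase of the ErbB family. It pairs with ligand-bound ErbB receptors, above all ErbB3, and signals through the PI3K/Akt and Ras/MAPK pathways. In MMTV-Her2/neu mice the mouse mammary tumor virus promoter drives the transgene in mammary epithelium, and tumors arise after a latency during which further genomic changes can accumulate. Array CGH measures the average copy number over all cells of a tissue piece. A change carried by fewer cells and a change of fewer copies therefore cannot be told apart.

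Values are log2 ratios of Cy3 over Cy5, with the median over the autosomal probes of an array set to 0, so that 0 is the typical autosomal level of that tumor. Segments with a mean of at least 0.2 or at most -0.2 were called gained or lost. By the labels Cy5 marked tumor DNA and Cy3 reference DNA, whereas the values point to the opposite dyes. The deposited interval table lists 676 autosomal intervals of 3 or more probes whose mean is 0.2 or larger in size. Of these, 96.2% had the sign of Cy3 over Cy5, and in the MMTV-Her2/neu arrays 100% of 64 did. The deleted gene Brca1 read between -2.49 and -0.75 in the 5 tumors of its model, and Wnt1 read at least 1 in 4 of 5 MMTV-Wnt1 tumors. Other models' genes showed no such shift in most tumors. Myc read at least 1 in 1 of 5 MMTV-c-Myc tumors (median 0.25), Hras lay between -0.17 and 0.09 in MMTV-H-Ras tumors, and Trp53 between -0.53 and 0.17 in the p53fl/fl;MMTV-cre transplant tumors. Whether their probes match the transgene or the deleted part was not given in the sources used here. With the dyes taken as labelled, every sign below is turned and gains become losses, while sizes and p-values stay the same. The 5 arrays had a single-probe SD of 0.17 to 0.34, and both channels were well above background at 99.7% of their probes. The other 40 arrays had an SD of 0.16 to 0.48.

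Likenesses between arrays and a flat array bear on every result. H2N53 had nearly the profile of the C3(1)/SV40 T/t-antigens tumor C3TAg_5RPT (Pearson's r = 0.96 over 2057 bins of 1 Mb), and H2N61 that of C3TAg_7RPT (r = 0.93). These were the most alike of all 990 pairs of arrays, whose median r was 0.08. The deviations of single probes from their segment means had an r of 0.04 and -0.01 in these pairs. Within the model, H2N1 resembled H2N53 (r = 0.85) and H2N61 resembled H2NA (r = 0.80), and the median over the 10 pairs was 0.29. Such values were not particular to the model. H2N1 had an r of 0.82 with C3TAg_5RPT, and H2NA 0.75 with C3TAg_7RPT and 0.70 with C3TAg_8_RPT. H2N64 was nearly flat. No autosomal mean of H2N64 exceeded 0.08 in size, its SD of single probes was the highest of the model at 0.34, and its bin values fell with the number of probes in a bin (r = -0.41, against -0.29 to 0.21 in the other 40 arrays). The labels give no reason for these likenesses. C3TAg_5RPT and C3TAg_7RPT shared a slide and a scan date. H2N64, named MMTV_H2N64RPT in the deposited interval table, had the same scan date, unlike the other MMTV-Her2/neu arrays. Its single-probe deviations had an r of 0.85 with the MMTV-H-Ras array Haras_An5_3RPT, also of that date. What RPT stands for was not given. Within the model the flat profile of H2N64 and its scan date cannot be told apart. Whether DNA of 1 tumor was hybridized under 2 labels was not tested, and in that case the model of the tumor would be unknown and every group mean and count that holds such a pair would change. Results are given without these arrays where that changed a call.

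Of the 5 MMTV-Her2/neu tumors, 4 carried gains and losses of whole chromosomes, counted where gained segments, or lost ones, held at least 90% of the probes. H2N1 had gained chromosomes 5, 6, 16 and 18 and lost 2, 7, 10 and 13. H2N53 had gained 4, 5, 16 and 18 and lost 1, 2, 7, 10 and 13. These tumors therefore had 7 whole-chromosome changes in common. H2NA had gained 5, 8 and 17 and lost 7, 9, 10, 11, 12 and 16, so that chromosome 16 was gained in H2N1 and H2N53 and lost in H2NA. H2N61 had gained 15 and lost 10 and most of 7, with 75.9% of the probes of chromosome 7 in lost segments. H2N64 had no whole-chromosome change and 10 shallow segments with means between -0.33 and 0.28. Its 11 lost bins held a median of 59 probes, against 16 over all bins.

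**Figure D1:**
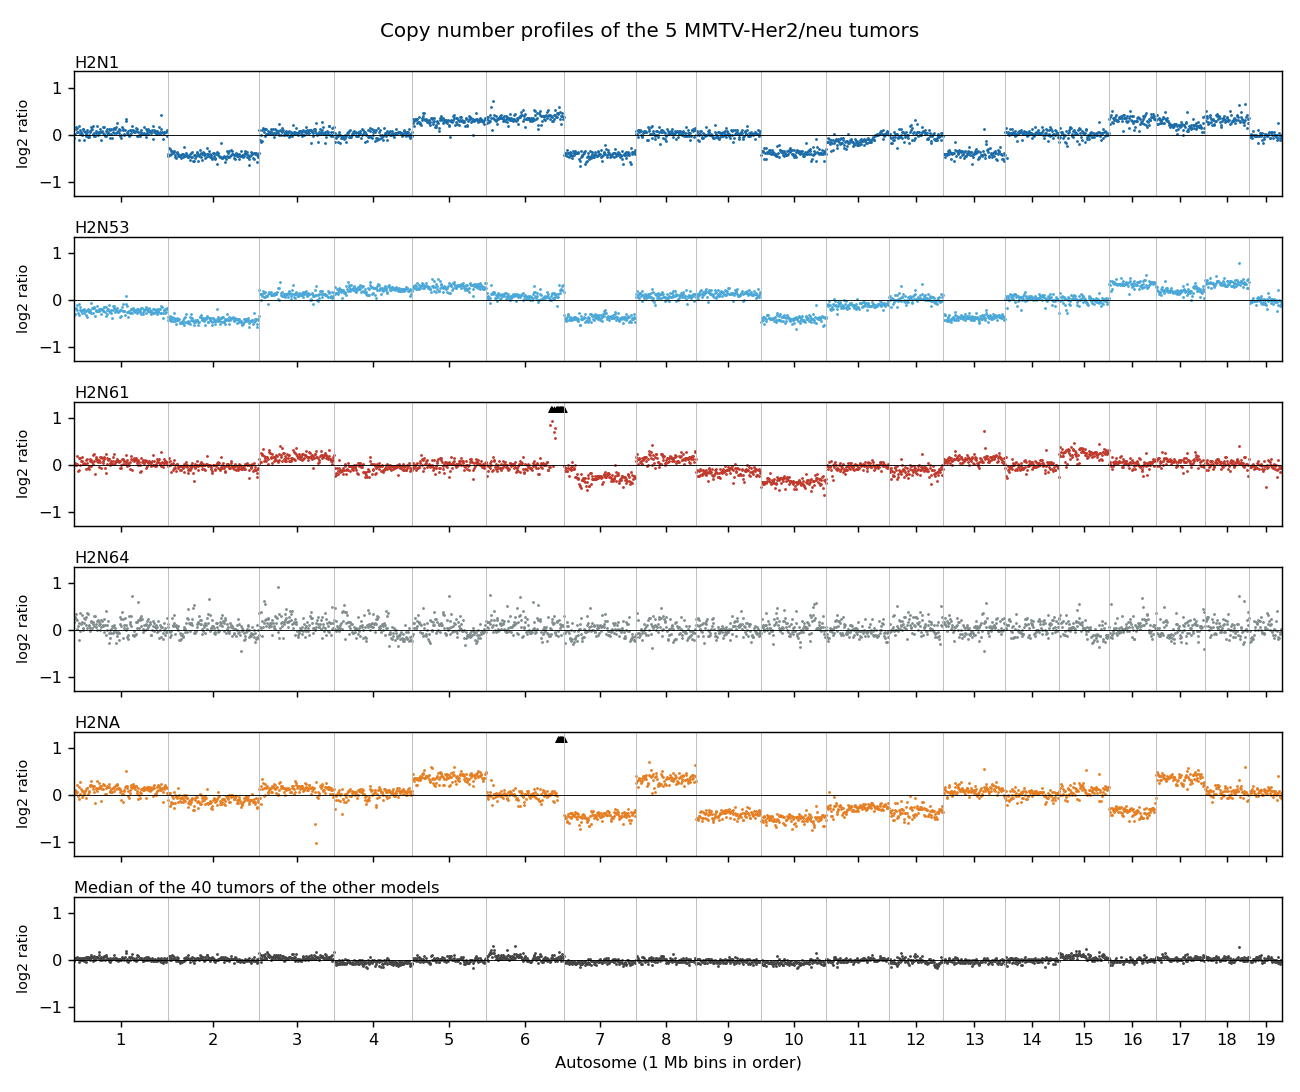
Log2 ratio (Cy3 over Cy5, vertical axis, values over 1.2 drawn as black triangles at 1.2) of each 1 Mb bin in genome order (horizontal axis, autosomes separated by grey lines) in the 5 MMTV-Her2/neu tumors, with the median of the 40 other tumors at the bottom. Chromosomes 7 and 10 lie below 0 in every tumor but H2N64, and distal chromosome 6 rises above 1 in H2N61 and H2NA alone among the 5.

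Chromosomes 7 and 10 were lower in MMTV-Her2/neu tumors than in the other models, the only autosomes of 19 to pass the test (10.5%; exact permutation test over 1221759 assignments, two-sided, Benjamini-Hochberg over 19 autosomes). The mean log2 ratio of chromosome 7 was -0.41 in H2N1, -0.41 in H2N53, -0.23 in H2N61, -0.05 in H2N64 and -0.41 in H2NA. Thus 4 tumors lay at or below -0.2, as did 9 of the 40 others, and the groups overlapped. The difference was -0.23 (-0.30 ± 0.16, SD, n = 5, against -0.07 ± 0.16, SD, n = 40; exact p = 0.00292, adjusted p = 0.0278). Chromosome 7 carries the Ras gene Hras and the cyclin D1 gene Ccnd1 in the mouse. The mean of chromosome 10 was -0.37 in H2N1, -0.43 in H2N53, -0.34 in H2N61, 0.03 in H2N64 and -0.47 in H2NA. H2N53 and H2NA were lower than every tumor of the other models, of which the lowest read -0.40 and 6 lay at or below -0.2. The difference was -0.24 (-0.32 ± 0.20 against -0.08 ± 0.15; exact p = 0.00252, adjusted p = 0.0278). Chromosome 10 carries Erbb3, the main partner of Her2.

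Both calls depended on single arrays. Without H2N1, H2N53, H2N61 or H2NA in turn the adjusted exact p was 0.149, 0.156, 0.0527 and 0.135 for either chromosome, with differences of -0.25 to -0.21 for chromosome 7 and -0.23 to -0.20 for chromosome 10. Without H2N64 it was 0.00476 for chromosome 7 and 0.00238 for chromosome 10, and 4 autosomes passed, chromosomes 2 and 5 being the others. Without H2N53, H2N61 and the 2 C3(1)/SV40 T/t-antigens tumors they resembled, no autosome passed (adjusted p = 0.168 for chromosome 7 and 0.176 for chromosome 10), and without those 2 tumors alone both passed at 0.0125. Without C3TAg_5RPT alone, 4 autosomes passed. Leaving out either like pair of MMTV-Her2/neu tumors, an alternative chosen after the data were seen, left none.

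**Figure D2:**
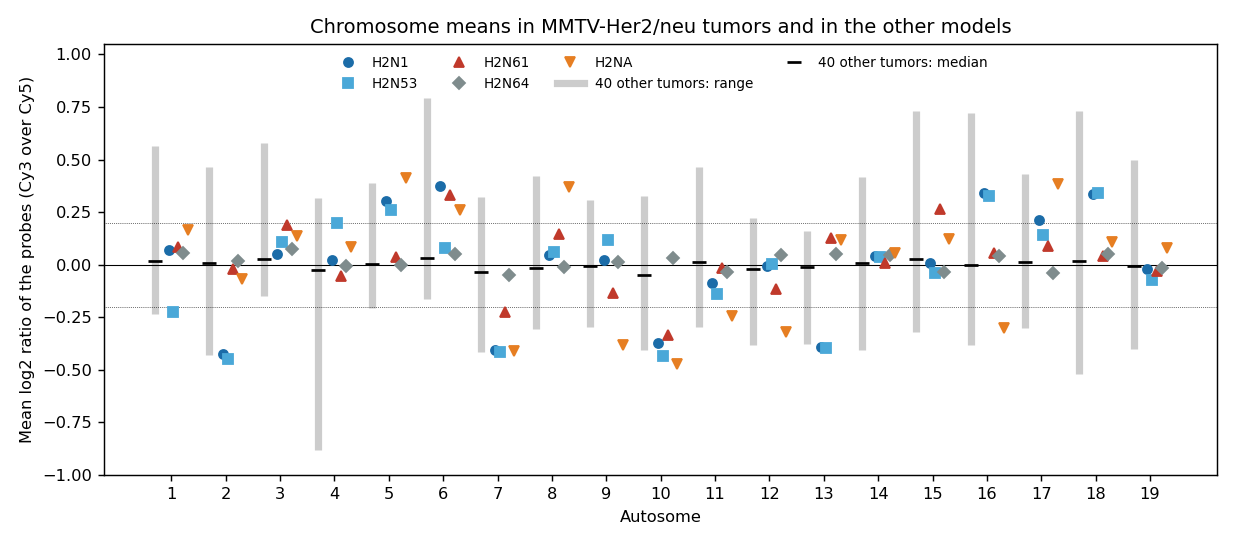
Mean log2 ratio (Cy3 over Cy5, vertical axis) of the probes of each autosome (horizontal axis) in the 5 MMTV-Her2/neu tumors (coloured symbols), beside the range (grey bar) and median (black dash) of the 40 other tumors; dotted lines mark 0.2 and -0.2. The 4 tumors other than H2N64 lie at or below -0.23 on chromosome 7 and at or below -0.34 on chromosome 10, and H2N64 lies near 0 throughout.

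Set against single models, the lower level of both chromosomes passed the test against MMTV-PyMT alone (14 exact permutation tests, Benjamini-Hochberg). MMTV-PyMT tumors averaged -0.01 on chromosome 7 and 0.03 on chromosome 10 (n = 9), and the MMTV-Her2/neu tumors lay lower by differences of -0.29 (adjusted p = 0.021) and -0.34 (adjusted p = 0.0315). The closest were the C3(1)/SV40 T/t-antigens tumors, with means of -0.19 and -0.21 and differences of -0.11 (adjusted exact p = 0.325) and -0.10 (adjusted exact p = 0.397, n = 5). The 5 C3(1)/SV40 T/t-antigens tumors include both that resembled MMTV-Her2/neu arrays. The 5 MMTV-c-Myc tumors averaged 0.01 and 0.03, a difference of -0.31 (adjusted exact p = 0.0741) and -0.35 (adjusted exact p = 0.0952).

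Slides allowed a further comparison, since 4 of the 5 MMTV-Her2/neu arrays shared a slide with other tumors. These slide mates were 4 MMTV-c-Myc, 4 MMTV-PyMT and 2 C3(1)/SV40 T/t-antigens tumors, mostly of models with few changes, so slide and the choice of models cannot be told apart. On chromosome 7 the MMTV-Her2/neu tumor lay below the mean of its slide mates by -0.43 for H2NA, -0.47 for H2N1, -0.39 for H2N53 and -0.23 for H2N61. On chromosome 10 the same differences were -0.48, -0.39, -0.53 and -0.33. Permuted within slides, chromosomes 7 and 10 passed, and so did 2, 5, 6, 11 and 17 (adjusted exact p = 0.022 to 0.0377; 144 assignments, smallest possible p = 0.00694).

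Chromosomes 5 and 2 came next in size. The mean of chromosome 5 was 0.30 in H2N1, 0.26 in H2N53, 0.04 in H2N61, -0.00 in H2N64 and 0.41 in H2NA, the last above the highest of the 40 others (0.39). The difference of 0.17 did not pass (adjusted exact p = 0.0794), whereas it passed without centring (0.19, adjusted exact p = 0.0438), with normexp background correction (0.22, adjusted exact p = 0.0314) and without replicate 6 of the p53fl/fl;MMTV-cre transplant model (0.18, adjusted exact p = 0.0477). The mean of chromosome 2 was -0.42 in H2N1 and -0.45 in H2N53, lower than the other 3 tumors, which lay between -0.07 and 0.02. Its difference of -0.23 did not pass either (adjusted exact p = 0.0794). The low values on chromosome 2 thus came from 1 pair of like tumors.

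At the scale of 1 Mb bins no single bin passed. Of 2057 autosomal bins, limma called 0 higher (0.0%) and 0 lower (0.0%) at an adjusted p under 0.05, and the smallest adjusted p was 0.102. At an unadjusted p under 0.05, 123 bins were higher and 338 lower, of which 99 lay on chromosome 10 among 112 bins, 112 on chromosome 7 among 122 and 123 on chromosome 2 among 156. The bin with the smallest p lay at the start of chromosome 10 (chr10:3000001-4000000, mm8) and read -0.43 in H2N1, -0.48 in H2N53, -0.46 in H2N61, -0.07 in H2N64 and -0.55 in H2NA. All but H2N64 were low there. Without H2N64, limma called 74 bins higher (3.6%) and 254 lower (12.3%). The lower bins were 107 of 112 on chromosome 10, 95 of 122 on chromosome 7, 51 of 156 on chromosome 2 and 1 on chromosome 1. The higher bins were 58 of 126 on chromosome 5, 11 on chromosome 6 and 5 on chromosome 17. With array weights estimated by limma, which scale down deviating arrays, 283 bins were called higher and 481 lower, and with slide as a fixed term 129 and 270. In that last fit the other models form 1 group, and H2N64, alone on its slide, does not enter the difference.

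The same chromosomes recurred when tumors were counted. A loss covering at least 10% of the probes of chromosome 10 was present in 5 of 5 MMTV-Her2/neu tumors (95% exact Clopper-Pearson interval 47.8 to 100%) and in 11 of 40 others (27.5%, 14.6 to 43.9%). No pair of autosome and direction passed (0 of 38, 0.0%; Fisher's exact test, adjusted p = 0.136 for this loss). In H2N64 the count rested on 3 short segments with 11.5% of the probes, although the mean of its chromosome 10 was 0.03. At a share of at least 50% the loss was present in 4 of 5 against 7 of 40. Loss of chromosome 7 was present in 4 of 5 (80%, 28.4 to 99.5%) against 10 of 40 (25%, 12.7 to 41.2%; exact adjusted p = 0.514). Gain of chromosome 5 was present in 3 of 5 against 7 of 40 (exact adjusted p = 0.614). With the deposited interval table in place of segments, losses of chromosome 7 (4 of 5 against 3 of 40) and chromosome 10 (4 of 5 against 4 of 40) both passed at an adjusted exact p of 0.0411.

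Counted by bins, 205 of 2057 were lost in at least 4 of the 5 tumors, and all of these lay on chromosomes 10 (112 bins, the whole chromosome) and 7 (93 bins). Gains were shared less widely. All 126 bins of chromosome 5 were gained in 3 tumors, and 9 bins, on chromosome 6, were gained in 4. No bin was gained in all 5 tumors and 3 were lost in all 5.

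The highest ratios of the model lay on distal chromosome 6, which was amplified in H2N61 and H2NA. In H2NA the amplified segments ran from chr6:139853015-149512282 (9.66 Mb, mm8), with segment means of 1.29 to 4.03. In H2N61 they ran from chr6:126498637-149512282 (23.0 Mb), with segment means of up to 4.91, interrupted by stretches at 0.56 (7 probes) and 0.82 (22 probes). Over the 164 probes of the region amplified in H2NA, the mean was 3.09 in H2N61 and 3.31 in H2NA, against 0.44 in H2N1, 0.23 in H2N53 and 0.08 in H2N64. Outside it the rest of chromosome 6 averaged 0.13 in H2N61 and 0.04 in H2NA, so the change was regional, whereas H2N1 averaged 0.37 there and had gained the whole chromosome.

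Among the 40 other tumors, 2 reached a mean of 2 over these probes, both of the C3(1)/SV40 T/t-antigens model, against 2 of 5 MMTV-Her2/neu tumors. They were C3TAg_7RPT (3.05), the tumor that H2N61 resembled, and C3TAg_8_RPT (3.71), so that each count holds 1 array of the pair H2N61 and C3TAg_7RPT. The amplified segments of C3TAg_7RPT had the same first probe as those of H2N61, and the 164 probe values of these arrays had an r of 0.95. The last probe was that of the chromosome, as in H2NA and C3TAg_8_RPT. H2N61 and H2NA had an r of 0.33 and H2NA and C3TAg_8_RPT 0.63, as a description. The shape thus differed between the MMTV-Her2/neu tumors that carried the amplification.

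Genes with the most extreme probe of an amplified segment were taken as its markers. In H2N61 these included, from proximal to distal, Klrb1f and Klra22 (natural killer cell receptors), Tas2r123 (a bitter taste receptor), Gucy2c (a guanylate cyclase receptor), Dera, Plcz1 (a sperm phospholipase), Pde3a (a phosphodiesterase), Slco1a1 (an organic anion transporter), Bcat1 (an aminotransferase of branched-chain amino acids), AK035947, Pthlh (parathyroid hormone-related protein) and 2810474O19Rik. In H2NA they included Sspn, which encodes the muscle membrane protein sarcospan, with its most extreme probe at 4.5, and Plcz1, AK144215, Slco1a4, Golt1b and Mlstd1. At 50% of the segment mean or more, 10 other arrays read as high at Klra22, among them the BRCA1fl/fl;p53+/-;MMTV-cre tumor Brca_54 at 2.35 against 1.00 in H2N61. At Slco1a4 in H2NA 7 did, and at the other segments named 1 to 3. Pde3a separated the tumors, at 3.71 in H2N61 and 0.78 in H2NA, while Mlstd1 read 2.30 in H2N61 and 4.53 in H2NA. Bcat1 was high in both, at 5.06 and 4.04.

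**Figure D3:**
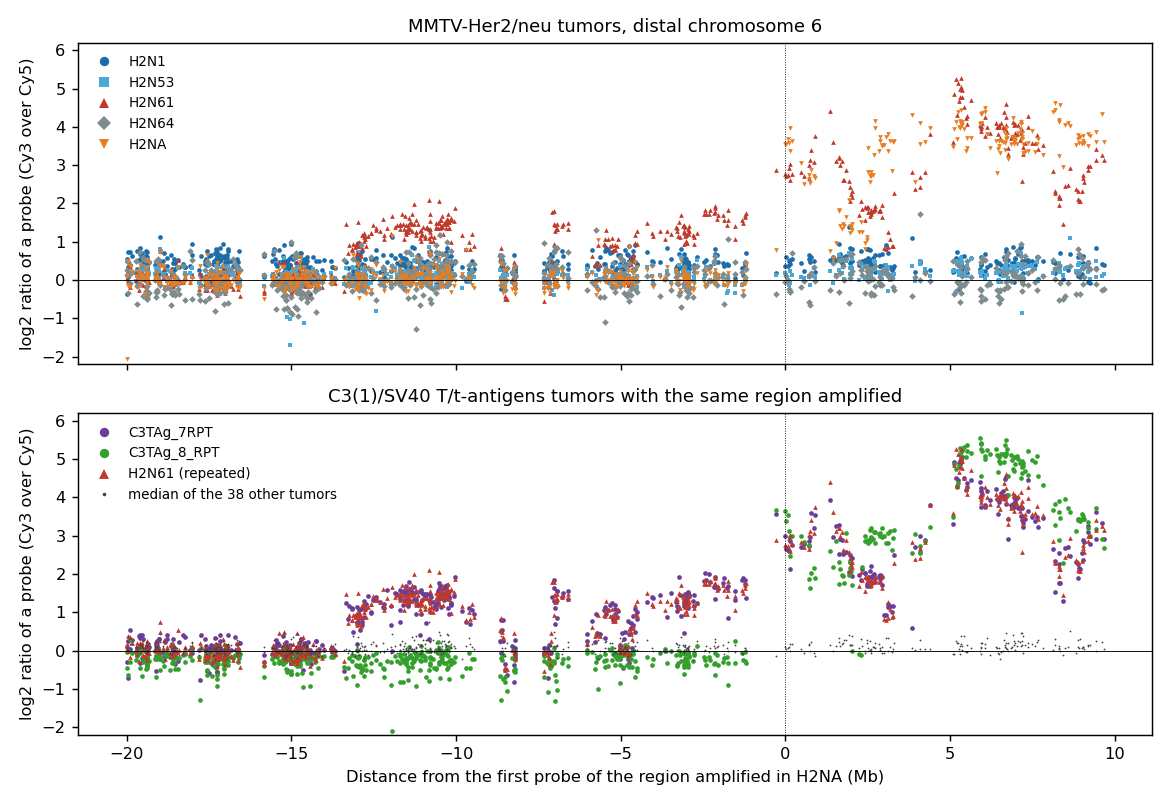
Log2 ratio (Cy3 over Cy5, vertical axis) of single probes of distal chromosome 6 by their distance in Mb from the first probe of the region amplified in H2NA (horizontal axis, that probe at the dotted line), in the 5 MMTV-Her2/neu tumors (top) and in C3TAg_7RPT, C3TAg_8_RPT, H2N61 again and the median of the 38 other tumors (bottom). H2N61 and H2NA rise to segment means of up to 4.91 and 4.03, and H2N61 and C3TAg_7RPT rise and fall together (r = 0.95 over the 164 probes amplified in H2NA), with scatter between single probes.

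Focal losses differed in number between tumors. H2NA had a loss on chromosome 3 (chr3:121482224-123018166, 46 probes) with a mean of -0.95 over its probes, against 0.05 in H2N1, 0.12 in H2N53, 0.23 in H2N61 and 0.02 in H2N64. The lowest of the 40 tumors of other models read -0.16 there. The segment carries F3, which encodes tissue factor, Gclm, a subunit of the enzyme that limits glutathione synthesis, the retinal transporter gene Abca4, Bcar3, Abcd3, Arhgap29, Pde5a and Fabp2. H2N53 had 12 losses of at least 1 in size, each of 5 to 8 probes, with means of -2.26 to -1.14. Their most extreme probes lay in or near L35549, Lrdd, AK042159, Kiss1r, M26410, Gna15, BC021381, H1f0, Prm1, Gtf2h4 and D930010J01Rik, and 1 had no gene name. The deepest held Gna15, a G protein subunit, on chromosome 10, and for 6 of the 12 no other array read as low as 50% of the segment mean, while for the rest 2 to 8 arrays did. The segment at Prm1, a protamine gene, was also lost in H2NA (-1.05 over 5 probes), where 6 other arrays read at least 50% of that mean. The profile of H2N53 resembled that of C3TAg_5RPT at the scale of chromosomes, but that array was not the nearest in level at any of these 12 segments.

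At the level of genes limma called 0 of 20194 higher (0.0%) and 6 lower (0.0297%), and at an unadjusted p under 0.05 the counts were 767 and 2018. A name was counted once per chromosome. These counts depended on single arrays. Without H2N64, limma called 64 genes higher and 342 lower, and without H2N61 2 and 39. Without H2N1, H2N53 or H2NA 0 were higher, and 2, 0 and 1 were lower. Leaving out 1 array of another model gave 10 to 36 lower genes for replicates 2 and 3 of BRCA1fl/fl;p53+/-;MMTV-cre, 1 of MMTV-c-Myc, 1 and 3 of MMTV-H-Ras, 2 and 6 of the p53fl/fl;MMTV-cre transplant model and 5 and 7 of MMTV-PyMT, with at most 2 higher. The gene with the largest difference was Nit1, a gene of the nitrilase family on chromosome 1, measured by 1 probe. It read -1.26 in H2N1, -2.86 in H2N53, -0.83 in H2N61, -0.58 in H2N64 and -1.35 in H2NA, and 2 of the 40 others lay below the highest of these. The difference was -1.36 (SE 0.21, limma adjusted p = 0.0011). The 54 probes within 500 kb had medians of 0.08, -0.22, 0.08, -0.07 and 0.18 in the same tumors, none of them as low as the Nit1 probe.

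AK080058 on chromosome 9 (difference -1.15, limma adjusted p = 0.0137), Olfr1361, an olfactory receptor gene on chromosome 13 (-1.02, adjusted p = 0.0346), and AK014683 on chromosome 7 (-0.92, adjusted p = 0.0324) also had 1 probe each. H2N53 was the lowest of the 5 in all of them, at -2.84, -2.44 and -2.42. AK009735 on chromosome 7 had 6 probes and read -0.93 in H2N1, -0.95 in H2N53, -0.67 in H2N61, -0.40 in H2N64 and -0.96 in H2NA (difference -0.62, limma adjusted p = 0.0346). The sixth called gene, AK045908 on chromosome 7 (difference -0.54, limma adjusted p = 0.0346), was named after its values were seen. Without H2N53 none of the first 5 passed, with adjusted p-values of 0.103 for Nit1 and 0.41 to 0.419 for the others. Among genes with at least 2 probes 0 were called, AK009735 included (adjusted p = 0.0708).

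No gene of 8 lists of the Her2 pathway and its surroundings passed the test over all genes, and 85 of 95 list members were on the array. Of the list members named below, Ccnd1, Grb7, Map2k2 and Elf5 passed under alternative settings that called many more genes (527 higher and 1526 lower with slide as a fixed term, 509 and 1808 with array weights). The slide term also leaves H2N64, alone on its slide, out of the difference. The median difference over all genes tested was -0.02. The ErbB receptor genes came first. Erbb2 itself, at its own locus on chromosome 11, read 0.13 in H2N1, -0.04 in H2N53, 0.09 in H2N61, 0.13 in H2N64 and -0.11 in H2NA. None of the tumors had a high-level change there, and the difference from the other models was -0.05 (SE 0.13, limma adjusted p = 0.905). Whether its 2 probes match the transgene was not given in the sources used here, so they do not check the label. Egfr read -0.02, 0.03, -0.21, 0.26 and -0.38 in the same order, a difference of -0.01 (limma adjusted p = 0.98). Erbb3 on chromosome 10 read -0.44, -0.46, -0.41, -0.24 and -0.56, below 0 in every tumor. Its difference of -0.24 did not pass (SE 0.13, limma adjusted p = 0.424), and 18 of the 40 others lay below the highest of the 5. Erbb4 was not matched to a probe.

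The genes of the EGF-family ligands, which bind the partners of Her2, had a median difference of 0.18 over the 9 of 11 found. Areg, Ereg, Epgn and Btc lie on chromosome 5. Btc read 0.29 in H2N1, 0.24 in H2N53, 0.06 in H2N61, 0.03 in H2N64 and 0.48 in H2NA, in the order of the means of that chromosome (difference 0.22, SE 0.09, limma adjusted p = 0.271). Ereg differed by 0.22 as well (adjusted p = 0.301). Hbegf, on chromosome 18, read 0.55 and 0.42 in H2N1 and H2N53 and between -0.13 and 0.11 in the others.

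Downstream of the receptors, the 16 genes of adapters and the PI3K/Akt pathway had a median difference of 0.04 and the 12 of the Ras/MAPK pathway -0.08. The adapter gene Grb7, a neighbour of Erbb2 with 1 probe, read -0.36 in H2N1, -3.41 in H2N53, -0.09 in H2N61, 0.19 in H2N64 and -1.97 in H2NA (difference -0.97, limma adjusted p = 0.18). It passed with slide as a fixed term (-1.62, limma adjusted p = 0.00735), with array weights (adjusted p = 0.0316), with normexp (adjusted p = 0.0484) and without H2N64 (adjusted p = 0.0326). The fit with slide as a fixed term leaves H2N64 out of the difference as well. Erbb2 lay at -0.04 and -0.11 in the tumors with both low values. Map2k2, a MAPK kinase gene on chromosome 10, read from -0.60 to -0.45 in the 5 tumors, and 4 of the 40 others lay below the highest of these (difference -0.42, limma adjusted p = 0.2). It passed with array weights (limma adjusted p = 0.00721) and on the slides that hold a MMTV-Her2/neu array (adjusted p = 0.0243). The negative regulators of ErbB2 (7 of 8 found) had a median difference of 0.07. Errfi1, which encodes an inhibitor of ErbB kinases, read between 0.17 and 0.42 in the 5 tumors (difference 0.26, limma adjusted p = 0.369).

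Among cell cycle genes (13 of 16 found, median difference 0.11), Ccnd1 had the largest difference. Its 1 probe on chromosome 7 read -2.17 in H2N1, -2.12 in H2N53, -0.52 in H2N61, 0.51 in H2N64 and -2.77 in H2NA, while the median of the 40 others was -0.16 and the lowest -2.45. In H2N1 all of chromosome 7 was 1 segment at -0.40. In H2NA its segments lay at -0.53 to -0.37, so the single probe read far below its surroundings in both. The difference of -1.08 did not pass (SE 0.32, limma adjusted p = 0.134), whereas it passed with slide as a fixed term (-1.79, adjusted p = 0.00392), with array weights (-1.24, adjusted p = 0.00504) and without H2N64 (-1.56, adjusted p = 0.00686). H2N64 is out of the fit with the slide term too. Cdkn2a, the locus of the p16 and p19 cell cycle inhibitors, was not lost in any of the 5 tumors, at 0.09 to 0.30 (difference 0.28, limma adjusted p = 0.268). The genes of p53 and DNA repair (12 of 13 found) had a median difference of 0.07 and those of the mammary lineage (13 of 15) -0.14. Elf5, a transcription factor gene of the alveolar lineage on chromosome 2, read -0.40 in H2N1, -0.86 in H2N53, -0.22 in H2N61, 0.01 in H2N64 and -0.21 in H2NA (difference -0.60, limma adjusted p = 0.156), which passed with array weights (adjusted p = 0.00975).

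The extent of change varied widely within the model. Of the autosomal bins, 45.2% were altered in H2N1, 52.3% in H2N53, 15.3% in H2N61, 1.36% in H2N64 and 46.6% in H2NA. The other 40 tumors ranged from 0 to 87.9% with a median of 12.5%, and the difference in means of 9.01 percentage points did not pass (32.1 ± 22.4, SD, n = 5, against 23.1 ± 25.7, n = 40; exact adjusted p = 0.702). Among the tumors on shared slides the call changed, with 35.8 points more altered, 12.3 more gained and 23.5 more lost bins within slides (adjusted exact p = 0.00694 for each). That comparison leaves out H2N64, which shared its slide with no other tumor. Lost bins made up 19.4% against 9.67% (difference 9.74, exact adjusted p = 0.451) and gained bins 12.7% against 13.5% (difference -0.73, exact adjusted p = 0.912). By these means losses were the larger share in the MMTV-Her2/neu tumors and gains in the 40 others pooled. That contrast was not tested itself. Single tumors went either way. H2N64 had 0.83% gained and 0.53% lost. In other models, Brca_54 had 25.6% gained and 36.4% lost, C3TAg_5RPT 24.6% and 31.8%, and Hras_An1_3 28.9% and 0%. With segments of at least 0.3 in size, or with the deposited interval table, the difference in lost bins passed (10.8 points, exact adjusted p = 0.0218, and 16.4 points, exact adjusted p = 0.0092).

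Against single models the altered share was higher by 30.1 points than in MMTV-c-Myc tumors (exact adjusted p = 0.0833), by 25.1 than in MMTV-PyMT (exact adjusted p = 0.0804) and by 23.4 than in MMTV-Wnt1 (exact adjusted p = 0.148). The difference from the p53fl/fl;MMTV-cre transplant tumors was -22.4 (exact adjusted p = 0.273). The other 3 models differed by -4.70 to 6.14 points. None of the 7 comparisons passed as given. The difference from MMTV-PyMT passed with segments of at least 0.15 in size (30.5 points, exact adjusted p = 0.0455), with a split statistic over 5 (26.5 points, 0.049) and without H2N64 (32.8 points, 0.0196), and that from MMTV-c-Myc without H2N64 (37.8 points, 0.0278).

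**Figure D4:**
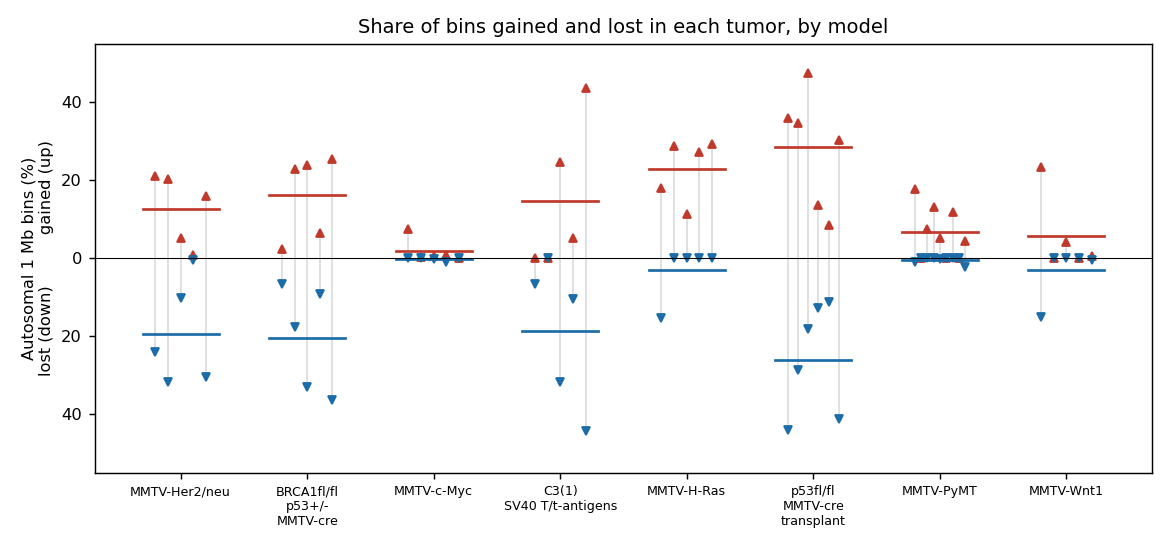
Percent of autosomal 1 Mb bins gained (red, up) and lost (blue, down) in each tumor (joined symbols), by model (horizontal axis), with the mean of each model as a line. In MMTV-Her2/neu the mean is 12.7% gained and 19.4% lost, and H2N64 lies near 0.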

How the data were processed

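DNA copy number was taken from 45 arrays, 1 per tumor, grouped by the model in the labels. The authors deposited Agilent Feature Extraction output (9.5.1.1 in the file headers; 10.7 in the submitters' processing notes), with a background-subtracted and dye-normalized intensity per channel and a log10 ratio of Cy5 over Cy3 per spot, on mm8. They also deposited a table of intervals with a mean log2 ratio per tumor; its p-values and the tables of single models hold the authors' own calls and were not used.

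The log10 ratios were converted to log2, turned to Cy3 over Cy5 and centred on the autosomal median. Control spots and outlier flags were left out and spots of a probe averaged (40666 autosomal probes). Lone probes over 4 SD from the probes around them were pulled to 2 SD, and circular binary segmentation accepted a split at a statistic above 6, with no segment under 5 probes. Bins of 1 Mb with at least 3 probes took the median, genes the mean over probes of a name. Bins and genes were tested with limma 3.58.1 (R 4.3.3), as the contrast of MMTV-Her2/neu with the averaged means of the 7 remaining models, and adjusted by Benjamini-Hochberg. Single values were tested by exact permutation, two-sided by the size of the difference (Python 3.11.15, numpy 2.4.6, scipy 1.17.1), and counts by Fisher's exact test. The threshold was an adjusted p of 0.05. The limma step, the exact permutation test and the segmentation were tested on simulated data. Nothing says that tumors came from separate litters, so p-values measure the spread between these tumors. The number of arrays limits the precision.

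Named were the ErbB receptors, list members past the test, the most extreme gene of each segment of at least 1 in size, and called genes, at most 2 per chromosome; list members with the largest differences, and the genes of the chromosome 3 loss, were named after their values were seen. A gene that this rule covers is not reported here. Of 20093 gene names, 11649 matched a current RefSeq symbol, and 3 list members were found by an older name. Members and lists were chosen with earlier results of these data known. Alternatives changed the centring, background, normalization, filters, arrays, contrast, slide and scan date terms, bins, thresholds and segmentation, and left out each array in turn.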

Additional observations from a re-analysis of the deposited data

Results flagged for a closer look

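Among 36 sets of 5 values over the MMTV-Her2/neu tumors, 2 held a tumor far from the other 4, judged by its gap to the nearest of them as a share of the whole range (Dixon's test), which chance gives in about 1 in 20 sets. The mean of chromosome 1 was -0.23 in H2N53 and between 0.06 and 0.17 in the others, a gap of 0.719 of the range. The mean of chromosome 10 was 0.032 in H2N64 and between -0.47 and -0.34 in the others, a gap of 0.729 of the range. H2N64 had the highest SD of single probes of the model, and the part of that in its value was not tested.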

How the results depend on the processing

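The direction of the differences in chromosomes 7, 10, 5 and 2 held under every alternative run for them. The calls did not. Bins called higher and lower, 0 and 0 as reported, numbered 47 and 46 with normexp background correction, 86 and 206 on the slides that hold a MMTV-Her2/neu array, 129 and 270 with slide as a fixed term and 283 and 481 with array weights; without H2N1 and H2N53, 10 were higher. Genes called higher and lower, 0 and 6 as reported, numbered 41 and 48 with normexp, 64 and 458 on those slides, 527 and 1526 with slide as a fixed term and 509 and 1808 with array weights. Lower genes numbered 11 with the density peak as the centre, 45 without H2N61 and H2NA, and 0 without H2N1 and H2N53, without the 4 arrays of the near-identical pairs, or with at least 2 probes. Autosomes called numbered 7 on those slides and within slides and 0 without the 4 arrays or without either like pair of tumors. Pairs of autosome and direction numbered 1 on those slides and 2 with the interval table.

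The altered share differed by 27.9 points on those slides (adjusted exact p = 0.00549), 35.8 within slides (0.00694), both past the test, and -2.05 without H2N1 and H2N53. The gained share, -0.73 as reported, was 9.26 on those slides and 12.3 within slides, where it passed (0.019 and 0.00694), 1.67 without centring, 3.67 with normexp, 0.011 and 3.35 with segment thresholds of 0.3 and 0.15, 0.70 with a split statistic over 5, 0.33 without smoothing and 0.68 without H2N61 and H2NA. The lost share passed at 18.6 on those slides, 23.5 within slides, 10.8 with a threshold of 0.3 and 16.4 with the interval table. The altered share against C3(1)/SV40 T/t-antigens turned to 5.10 with the density peak, 3.87 without centring, 5.21 with normexp, 3.50 with loess, 0.64 without C3TAg_5RPT and C3TAg_7RPT, 28.8 on those slides, 5.35 at 0.3, 0.71 with a split over 5, 1.1 with the interval table and 0.76 without smoothing. Against MMTV-H-Ras it turned to -13.7 without centring, -4.93 without H2N1 and H2N53 and -5.08 at 0.15, and against BRCA1fl/fl;p53+/-;MMTV-cre to 9.02 with normexp and 7.73 at 0.3. Egfr turned to 0.0070 without centring, 0.013 without the 4 arrays and 0.14 without H2N61 and H2NA. The cause was not tested.

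Leaving out single arrays gave 0 to 74 bins higher and 0 to 254 lower, 0 to 64 genes higher and 0 to 342 lower, 0 to 4 autosomes, 0 to 0 pairs, and shares of 3.98 to 16.7 altered, -2.83 to 2.25 gained and 6.64 to 14.5 lost. Other ranges over single arrays that crossed 0 were -0.091 to 0.069 for Egfr, -11.6 to 3.00 against BRCA1fl/fl;p53+/-;MMTV-cre and -9.51 to 12.5 against C3(1)/SV40 T/t-antigens. No paired analysis was possible because the replicate numbers, given in accession order, pair no tumors. Matching by shared slides is given by the values within slides and with slide as a fixed term. Both leave out H2N64, which shared its slide with no other array. Alternatives without smoothing, without either like pair and with a doubled-tail p were chosen after seeing the data; the last changed no call. Signal over background, with a median Cy5 signal of 5.88 to 8.23 times background in the 5 arrays, and 5 tumors limit what could be called, and shallow or short changes can be missed.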
